A study of Rattus norvegicus with 20 samples.

Results

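The Cyp1 family and the aryl hydrocarbon receptor (AhR) genes were described in rat liver: Cyp1a1, Cyp1a2, Cyp1b1, Ahr, Arnt and Tiparp. These 6 genes are represented by 8 of the 31039 probe sets tested, and they are 6 of the 14217 genes with a single current symbol on the array. The genes were chosen by name, and each gene was described by the probe set selected on its mean z score over all 20 rats, without regard to diet. That mean was 2.26 for Cyp1a2, 0.56 for Tiparp, -0.03 for Cyp1b1, -0.26 for Arnt, -0.39 for Ahr and -0.40 for Cyp1a1. These means only served to choose probe sets, and levels of different probe sets cannot be ranked against each other. Ahr and Tiparp each have a second probe set, with means of -0.45 and -0.05, which was used as a check.

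Liver RNA of male Sprague-Dawley rats, which were 4 weeks old when they were obtained, was hybridised to 1 Affymetrix array per rat. The rats ate 1 of 4 diets for 21 days, and 5 rats of each diet were measured. The CS diet held casein and soybean oil, the CF diet casein and fish oil, the TS diet tofu and soybean oil, and the TF diet tofu and fish oil. All 4 diets held 200 g/kg protein and 150 g/kg fat, and the fish oil diets held 50 g/kg fish oil in place of soybean oil. The tofu was freeze-dried and brought most of the protein and of the fat of its diets with it. The tofu diets were therefore supplemented with some casein, and they contained other soybean components besides protein. The rats that ate most and least in each group were not put on arrays, and all rats went without food for a short time before the livers were taken.

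AhR is a transcription factor that waits in the cytoplasm in a complex with a heat shock protein. After it binds a ligand, such as a planar aromatic compound of food or smoke or a breakdown product of tryptophan, it enters the nucleus and pairs with Arnt. The pair binds DNA elements with the core GCGTG and raises the transcription of Cyp1a1, Cyp1a2, Cyp1b1 and Tiparp, the last of which in turn damps the receptor. In liver, Cyp1a2 is a constitutive enzyme of hepatocytes around the central vein that oxidises caffeine and aromatic amines, whereas Cyp1a1 is low until AhR is activated, and Cyp1b1 is mostly an enzyme of cells other than hepatocytes.

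Promoter sequence was taken from RefSeq (assembly GRCr8), as the 250 bases before the annotated start of each gene, and 5 of the 6 genes were matched. Cyp1a1 has no entry in the table used here. The sequence of Cyp1a2 is shown first because it was the gene that differed with diet. It lies on the minus strand of chr8:66978150-66978399, and its capitals mark TATAAA, searched on the strand of the gene, which lies 39 to 34 bases before the start. This motif is present in 8.06% of the 33469 promoter entries of the table.
Cyp1a2: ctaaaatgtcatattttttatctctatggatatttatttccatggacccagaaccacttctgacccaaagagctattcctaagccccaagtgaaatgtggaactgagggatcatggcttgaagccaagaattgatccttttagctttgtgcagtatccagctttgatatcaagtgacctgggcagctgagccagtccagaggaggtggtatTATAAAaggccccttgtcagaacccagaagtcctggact

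The AhR core GCGTG, searched on both strands, had no match in these bases of Cyp1a2 or of Ahr. It was present once in Arnt and in Tiparp, and in 2 places in Cyp1b1. The stretches around these matches are shown for comparison with Cyp1a2, with the core or its reverse complement (CACGC) in capitals. They lie on the plus strand, at chr6:21094459-21094513 and chr6:21094520-21094564 for Cyp1b1, chr2:185686636-185686690 for Arnt and chr2:152063608-152063662 for Tiparp.
Cyp1b1, 81 to 77 bases before the start: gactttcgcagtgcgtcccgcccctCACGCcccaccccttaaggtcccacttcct
Cyp1b1, 20 to 16 bases before the start: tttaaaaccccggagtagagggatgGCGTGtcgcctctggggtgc
Arnt, 42 to 38 bases before the start: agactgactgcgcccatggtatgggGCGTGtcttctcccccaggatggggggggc
Tiparp, 136 to 132 bases before the start: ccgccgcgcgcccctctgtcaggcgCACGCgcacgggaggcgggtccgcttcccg
The core is short and was present in 25.9% of all promoter entries. With the longer form TNGCGTG, which overlaps the core and was present in 4.09% of entries, only the Cyp1b1 match nearest to the start remained among the 5 genes. A match describes the letters only, and elements farther from the start were not searched.

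Expression is given as z scores, whose log scale makes 1 unit equal to 5.57-fold by the study's methods. A fold is given only where all group means lay above 0.024, the highest of the 20 array medians, and differences of dimmer probe sets are given in z. Array medians ranged from -0.10 to 0.024, and pairs of arrays correlated with r between 0.929 and 0.965. In 4 rats (TF-3, TS-1, CF-1 and CS-1) the 5' control of beta-actin, a sign of RNA integrity, read 1.30 to 1.42, against 1.86 to 2.13 in the other 16. Each diet held 1 of these rats. The arrays of TS-7, TF-4 and TF-5 correlated least with the others, with mean r of 0.939 to 0.943 against at least 0.951. The hepatocyte markers (5 measured) had mean z of 3.20 to 3.46 over the rats, in keeping with a labelled liver sample.

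Cyp1a2 was higher in the livers of rats fed tofu. In the CS group its z scores were 1.98 in CS-1, 1.70 in CS-2, 2.32 in CS-5, 2.14 in CS-6 and 2.28 in CS-7. In the CF group they were 2.01, 1.88, 2.09, 2.04 and 2.03 in rats 1, 2, 5, 6 and 7. In both casein groups the lowest value was that of rat 2, and the CF rats lay closer together (SD 0.079) than the CS rats (SD 0.252).

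In the TS group Cyp1a2 was at 2.63, 2.24, 2.44, 2.54 and 2.52 in rats 1, 2, 4, 5 and 7, with rat 2 again the lowest. In the TF group it was at 2.31, 2.61, 2.47, 2.74 and 2.31 in rats 3 to 7. All 10 tofu-fed rats lay above the casein mean, and 7 of the 10 lay above every casein-fed rat. The other tofu-fed rats, TS-2, TF-3 and TF-7, overlapped with CS-5 and CS-7.

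The protein effect, the mean of both tofu groups minus that of both casein groups, was 0.43 for Cyp1a2 (SE 0.0757, 95% interval 0.28 to 0.59, n = 10 rats a side), or 2.11-fold (1.61 to 2.77). Its adjusted p was 0.00924 by limma over all probe sets. Cyp1a2 was the only 1 of the 6 genes that passed, whereas 0.921% of all genes passed for the protein effect and 0.521% passed with a higher level on tofu. With 6 genes taken by name after results of these data were known, this count is a description of the genes and not an enrichment.

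**Figure D1:**
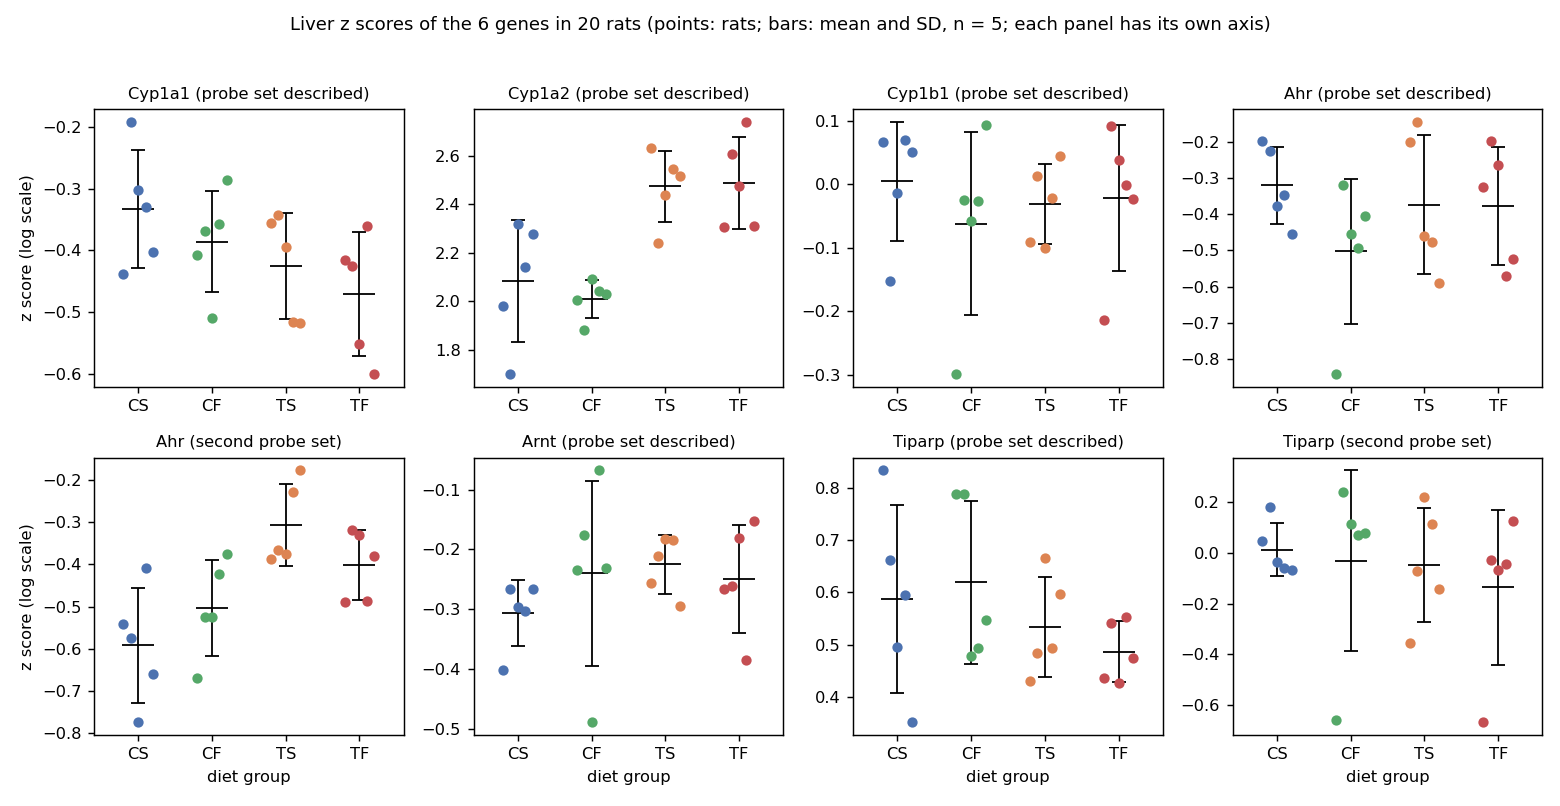
Liver z scores (log scale, y axis) of the 8 probe sets of Cyp1a1, Cyp1a2, Cyp1b1, Ahr, Arnt and Tiparp in the 4 diet groups (x axis), with 1 point per rat and bars for the mean and SD of 5 rats. The tofu groups (TS, TF) of Cyp1a2 have means of 2.47 and 2.49 against 2.08 and 2.01 in the casein groups (CS, CF), whereas the groups overlap on the other described probe sets.

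The group means of Cyp1a2 rose in the order CF (2.01 ± 0.079, SD, n = 5), CS (2.08 ± 0.252), TS (2.47 ± 0.148) and TF (2.49 ± 0.188). The neighbours CF and CS differed by less than the spread within them, as did TS and TF. The oil effect, fish oil minus soybean oil, was -0.03 (SE 0.0757, 95% interval -0.19 to 0.13), which in fold is 0.723 to 1.25. The interaction of protein and oil was 0.09 (95% interval -0.23 to 0.40, unadjusted p = 0.572 by limma), so a dependence of the protein effect on the oil was not detected at this number of rats.

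Between single diets, TS lay 0.39 above CS (SE 0.107, 1.96-fold, adjusted p = 0.282 by limma). TF lay 0.48 above CF (2.27-fold, adjusted p = 0.158), and all 5 TF rats lay above all 5 CF rats. TF lay 0.40 above CS (adjusted p = 0.125). These 3 differences had unadjusted p of 0.00175, 0.000278 and 0.00132, but none passed after adjustment over all probe sets. None of the 6 genes passed for any single diet pair, where 0.106% of all genes passed for TS minus CS, 0.0844% for CF minus CS, 0.753% for TF minus CS, 0.0985% for TF minus CF and 0.134% for TF minus TS. The comparisons against CS share its 5 rats.

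The size of the Cyp1a2 difference was similar in rats with and without a low beta-actin control. Among the 16 other rats the mean was 2.06 in 8 casein-fed and 2.48 in 8 tofu-fed rats. Among the 4 rats with the low control it was 1.99 in 2 casein-fed and 2.47 in 2 tofu-fed rats. In the 16 rats alone the difference was 0.42, but the adjusted p by limma was 0.0657. Without the 3 least correlated arrays, all from tofu-fed rats, it was 0.41 with an adjusted p of 0.0779. With any single rat left out the call held (0.39 to 0.46, adjusted p 0.00655 to 0.0224).

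Cyp1a1 did not move with Cyp1a2, its neighbour on the chromosome. Its z scores were -0.44, -0.19, -0.30, -0.33 and -0.40 in CS-1, CS-2, CS-5, CS-6 and CS-7, and -0.41, -0.37, -0.51, -0.36 and -0.29 in CF rats 1, 2, 5, 6 and 7. They were -0.36, -0.34, -0.40, -0.52 and -0.52 in TS rats 1, 2, 4, 5 and 7, and -0.42, -0.43, -0.55, -0.36 and -0.60 in TF rats 3 to 7. The groups overlapped, with CS-2 the highest rat and TF-7 the lowest, and every value was below the median of its own array.

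The protein effect of Cyp1a1 was -0.09 in z (SE 0.0416, 95% interval -0.18 to 0.00), opposite in sign to that of Cyp1a2. Its unadjusted p was 0.0463 and its adjusted p 0.476 by limma, so it did not pass. At an unadjusted p below 0.05, 2 of the 6 genes (Cyp1a2 and Cyp1a1) and 11.5% of all genes were found for the protein effect. The oil effect of Cyp1a1 was -0.05 (95% interval -0.14 to 0.04). A change of more than 0.2 in z is outside both intervals, as far as a probe set this dim records one.

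Cyp1b1, which hydroxylates oestradiol as well as aromatic compounds, had z scores near the array median in all groups. They were 0.07, -0.15, -0.01, 0.07 and 0.05 in CS rats, -0.30, -0.02, -0.06, -0.03 and 0.09 in CF rats, -0.09, 0.01, -0.10, -0.02 and 0.04 in TS rats, and -0.21, 0.09, 0.04, 0.00 and -0.02 in TF rats, in the order of rat numbers above. The groups overlapped throughout, and the lowest rats, CF-1 and TF-3, were both among those with the low beta-actin control. The part of RNA integrity in these values was not tested. The protein effect was 0.00 (SE 0.0479, 95% interval -0.10 to 0.10) and the oil effect -0.03 (95% interval -0.13 to 0.07). The sign of the protein effect turned under several alternatives, and that of the oil effect turned without CF-1 (0.00) and without all 4 rats with the low control (0.03).

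The receptor gene Ahr was measured by a pair of probe sets that disagreed. On the described probe set the z scores were -0.20, -0.23, -0.38, -0.35 and -0.45 in CS rats, -0.84, -0.32, -0.46, -0.49 and -0.41 in CF rats, -0.20, -0.15, -0.46, -0.48 and -0.59 in TS rats, and -0.33, -0.20, -0.27, -0.57 and -0.52 in TF rats. The groups overlapped, and CF-1, a rat with the low beta-actin control, was the lowest. The protein effect there was 0.04 (SE 0.0721, 95% interval -0.12 to 0.19, adjusted p = 0.914 by limma), and it was -0.01 when CF-1 was left out. The oil effect was -0.09 (95% interval -0.24 to 0.06).

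On the second probe set of Ahr the casein-fed rats lay lower, at -0.54, -0.58, -0.77, -0.41 and -0.66 in CS and -0.67, -0.52, -0.53, -0.42 and -0.38 in CF. The tofu-fed rats were at -0.39, -0.37, -0.38, -0.23 and -0.18 in TS and -0.49, -0.32, -0.33, -0.49 and -0.38 in TF. All 10 tofu-fed rats lay above the casein mean, and the 5 TS rats lay above all 5 CS rats. The protein effect was 0.19 (SE 0.0484, 95% interval 0.09 to 0.29). Its unadjusted p was 0.000794 and its adjusted p 0.0889 by limma, which did not pass; without CS-6 it was 0.0399, the only 1 of 29 alternative settings in which it passed. Both probe sets were below the median of their array in all 20 rats. Whether the transcript of the receptor differed with protein was therefore not settled by these arrays.

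Arnt, the partner of AhR in the nucleus, showed no called difference. Its values were -0.40, -0.27, -0.30, -0.30 and -0.27 in CS rats, -0.23, -0.18, -0.49, -0.07 and -0.23 in CF rats, -0.26, -0.21, -0.18, -0.18 and -0.29 in TS rats, and -0.27, -0.26, -0.18, -0.39 and -0.15 in TF rats. The CF group held both the lowest rat, CF-5, and the highest, CF-6, and so spanned all the others. The protein effect was 0.04 (SE 0.0437, 95% interval -0.06 to 0.13) and the oil effect 0.02 (95% interval -0.07 to 0.11).

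Tiparp encodes an ADP-ribosyltransferase that is induced by AhR and limits it. Its z scores were 0.83, 0.66, 0.50, 0.59 and 0.35 in CS rats, 0.79, 0.79, 0.48, 0.49 and 0.55 in CF rats, 0.43, 0.48, 0.67, 0.49 and 0.60 in TS rats, and 0.44, 0.54, 0.43, 0.55 and 0.48 in TF rats. The casein-fed rats were more spread (SD 0.160) than the tofu-fed rats (SD 0.078), and CS-1, CF-1 and CF-2 were the highest, the former pair with the low beta-actin control. The protein effect was -0.09 (SE 0.0571, 95% interval -0.21 to 0.03), or 0.853-fold, with an adjusted p of 0.625 by limma. Without the 4 rats with the low control it was -0.02. The oil effect was -0.01 (95% interval -0.13 to 0.11).

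The second probe set of Tiparp ranged from -0.67 to 0.24, with a protein effect of -0.08 (95% interval -0.32 to 0.15). It was lowest in TF-3 (-0.67), CF-1 (-0.66) and TS-1 (-0.36), which all had the low beta-actin control, although the remaining such rat, CS-1, was at 0.05. The 4 rats had a mean of -0.41 against 0.04 in the other 16. On the described probe set the same 4 rats had a mean of 0.62 against 0.54. The part of RNA integrity in this was not tested.

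For the oil effect and for the interaction, 0 of the 6 genes passed by limma, and 0 had an unadjusted p below 0.05. In these comparisons 0.302% and 0% of all genes passed, and 5.55% and 2.53% had an unadjusted p below 0.05. The median protein effect of the 6 genes was 0.02, beside 0.01 for all genes, and the median oil effect was -0.03, beside 0.00. Cyp1a2 was thus the exception among genes whose protein effects otherwise lay between -0.09 and 0.04 on the described probe sets.

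**Figure D2:**
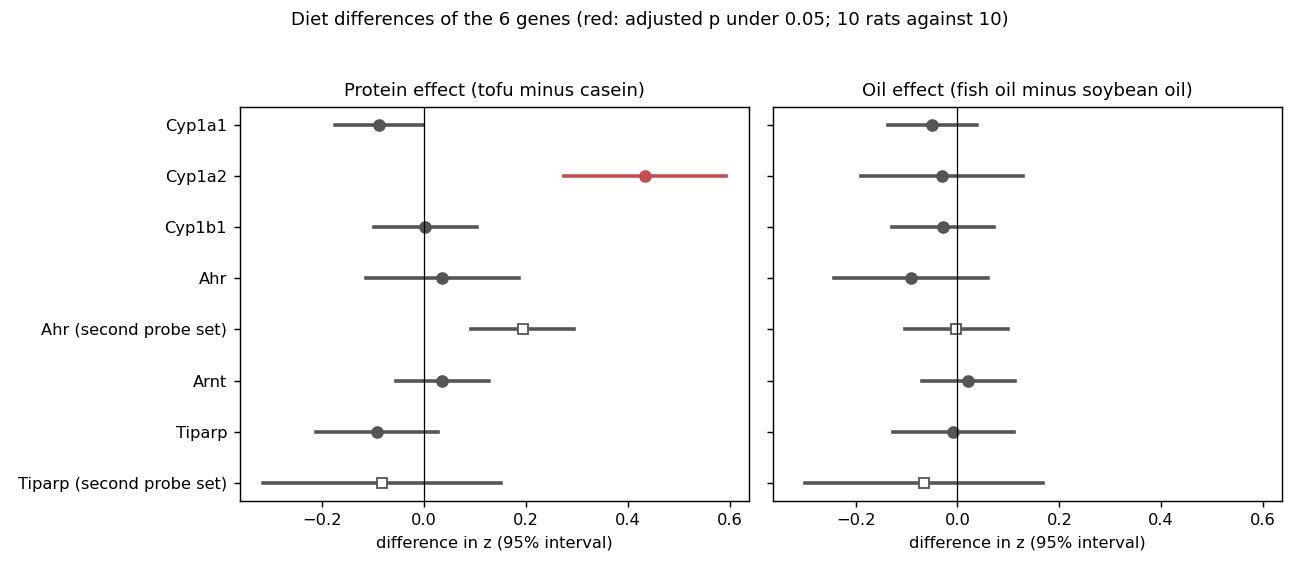
Protein effect (left) and oil effect (right) in z (x axis) of the 8 probe sets of the 6 genes (y axis), with 95% intervals from limma, 10 rats against 10; squares are second probe sets and red marks an adjusted p under 0.05. The interval of the protein effect of Cyp1a2 runs from 0.28 to 0.59, and every interval of the oil effect includes 0.

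Other genes that AhR is known to induce were compared next. Of 12 listed genes of the AhR battery, 8 were measured on a probe set of their own (Nqo1, Aldh3a1, Gsta1, Cyp2s1, Xdh, Nfe2l2, Serpinb2 and Slc7a5). For the protein effect 1 rose and 0 fell, where 0.921% of all genes passed. At an unadjusted p below 0.05 by limma there were 3 of the 8, beside 11.5% of all genes. All 8 differences were positive, with a median of 0.10 against 0.01 for all genes. After quantile normalization 6 of the 8 were positive, with a median of 0.05 against 0.00. For the oil effect 0 passed by limma, where 0.302% of all genes passed. At an unadjusted p below 0.05 for oil there was 1, beside 5.55% of all genes.

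The gene that rose was Nqo1, a quinone reductase that is also a target of the oxidant sensor Nrf2. It was at 0.83, 0.82, 0.32, 0.82 and 0.79 in CS rats 1, 2, 5, 6 and 7, and at 1.24, 1.18, 1.32, 1.09 and 1.31 in the CF rats. It was at 1.45, 1.43, 1.56, 1.66 and 1.30 in TS rats 1, 2, 4, 5 and 7, and at 1.16, 1.35, 1.46, 1.22 and 1.13 in TF rats 3 to 7. The CS group lay below every other rat, whereas CF and TF overlapped.

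The protein effect of Nqo1 was 0.40 (SE 0.0666, 1.99-fold, adjusted p = 0.00632 by limma), a size near that of Cyp1a2. The pattern over the diets was another one, however. TS lay 0.77 above CS (3.73-fold, adjusted p = 0.00115), but TF lay only 0.03 above CF (1.06-fold). CF lay 0.52 above CS (2.43-fold, adjusted p = 0.0573). The interaction of Nqo1 was -0.73 (unadjusted p = 2.84e-05), with an adjusted p of 0.484 by limma. For Cyp1a2, by contrast, CF lay 0.07 below CS, within the spread between rats. The difference between the interactions of the 2 genes was not tested.

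**Figure D3:**
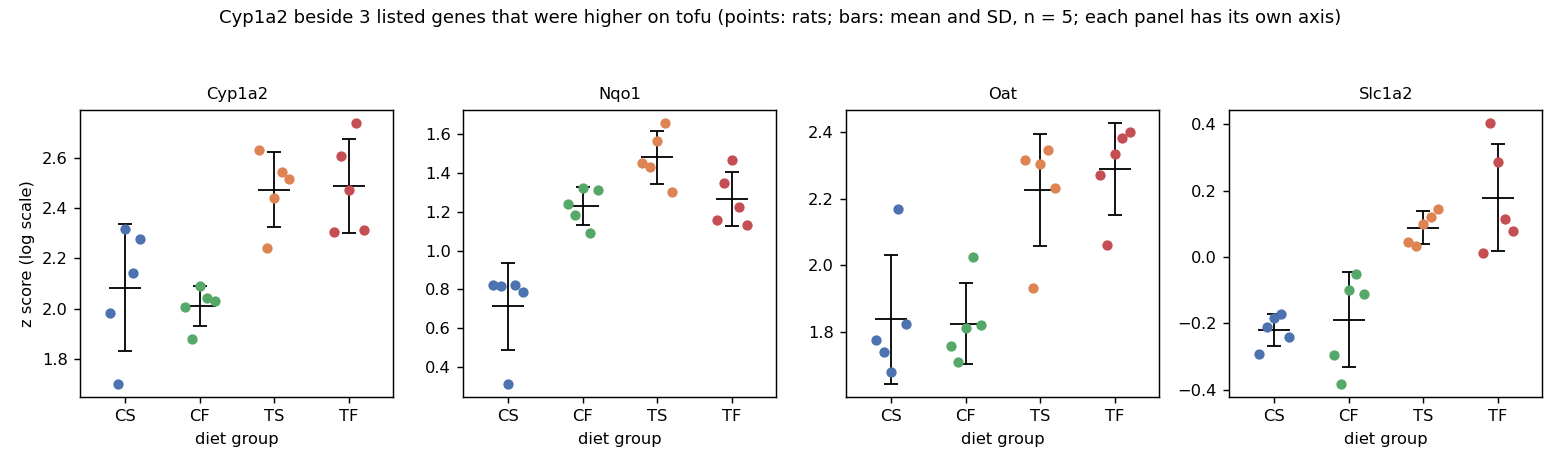
Liver z scores (log scale, y axis) of Cyp1a2, Nqo1, Oat and Slc1a2 in the 4 diet groups (x axis), with 1 point per rat and bars for the mean and SD of 5 rats. For Nqo1 the CS rats (0.32 to 0.83) lie apart from the other 3 groups, whereas for Cyp1a2, Oat and Slc1a2 the TS and TF means both lie above the CS and CF means.

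The remaining measured genes of the battery did not pass. Slc7a5, a carrier of large neutral amino acids, differed by 0.12 (adjusted p = 0.291 by limma) and Xdh, xanthine dehydrogenase, by 0.09 (adjusted p = 0.330). Aldh3a1, an aldehyde dehydrogenase known to follow AhR strongly, differed by 0.12 (adjusted p = 0.551), and Gsta1, a glutathione transferase, by 0.03.

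The proteins that hold, activate or repress AhR were also followed at the transcript level. Of 12 such genes 10 were measured, and 0 passed for the protein effect by limma, where 0.921% of all genes passed. At an unadjusted p below 0.05 there was 1 of the 10, beside 11.5% of all genes. The protein effects ran from -0.07 to 0.09. The largest was that of the coactivator Ncoa3 (0.09, adjusted p = 0.435), and the largest oil effect that of Ncoa2 (-0.05). Among 9 partners and relatives of Arnt, such as the hypoxia and clock factors, 0 passed for the protein effect. At an unadjusted p below 0.05 there was 1 of the 9, beside the same 11.5% of all genes. Sim2 had the largest protein effect (0.11, SE 0.153) and Sim1 the largest oil effect (0.08, SE 0.0963), both within their errors.

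Cytochromes P450 need haem and electron donors. Of 12 genes listed for these, 11 were measured and 0 passed for the protein effect by limma, where 0.921% of all genes passed. Of these 11, 4 had an unadjusted p below 0.05, beside 11.5% of all genes. The median difference was 0.0046, beside 0.01 for all genes, and 7 of the 11 were positive (5 after quantile normalization). Alad and Cyb5a came nearest to passing, at 0.11 (adjusted p = 0.0798 by limma) and 0.12 (adjusted p = 0.135). Por, an electron donor, differed by -0.11 (0.829-fold, adjusted p = 0.504). Fech, which inserts iron to form haem, differed by 0.16 (1.31-fold, adjusted p = 0.230), and Hmox1, which breaks haem down, by -0.13 (0.798-fold, adjusted p = 0.300). Of 11 measured genes of tryptophan breakdown, a source of AhR ligands, 0 passed and 6 had an unadjusted p below 0.05 (11.5% of all genes had), with differences between -0.10 and 0.12. Kynu came nearest to passing (0.11, adjusted p = 0.133 by limma). Kyat3, which makes kynurenic acid, differed by 0.12 (adjusted p = 0.318), whereas Kyat1 differed by -0.10 (adjusted p = 0.285). Acmsd had the largest oil effect (-0.31, adjusted p = 0.754). None of these lists had a gene called for the oil effect.

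**Figure D4:**
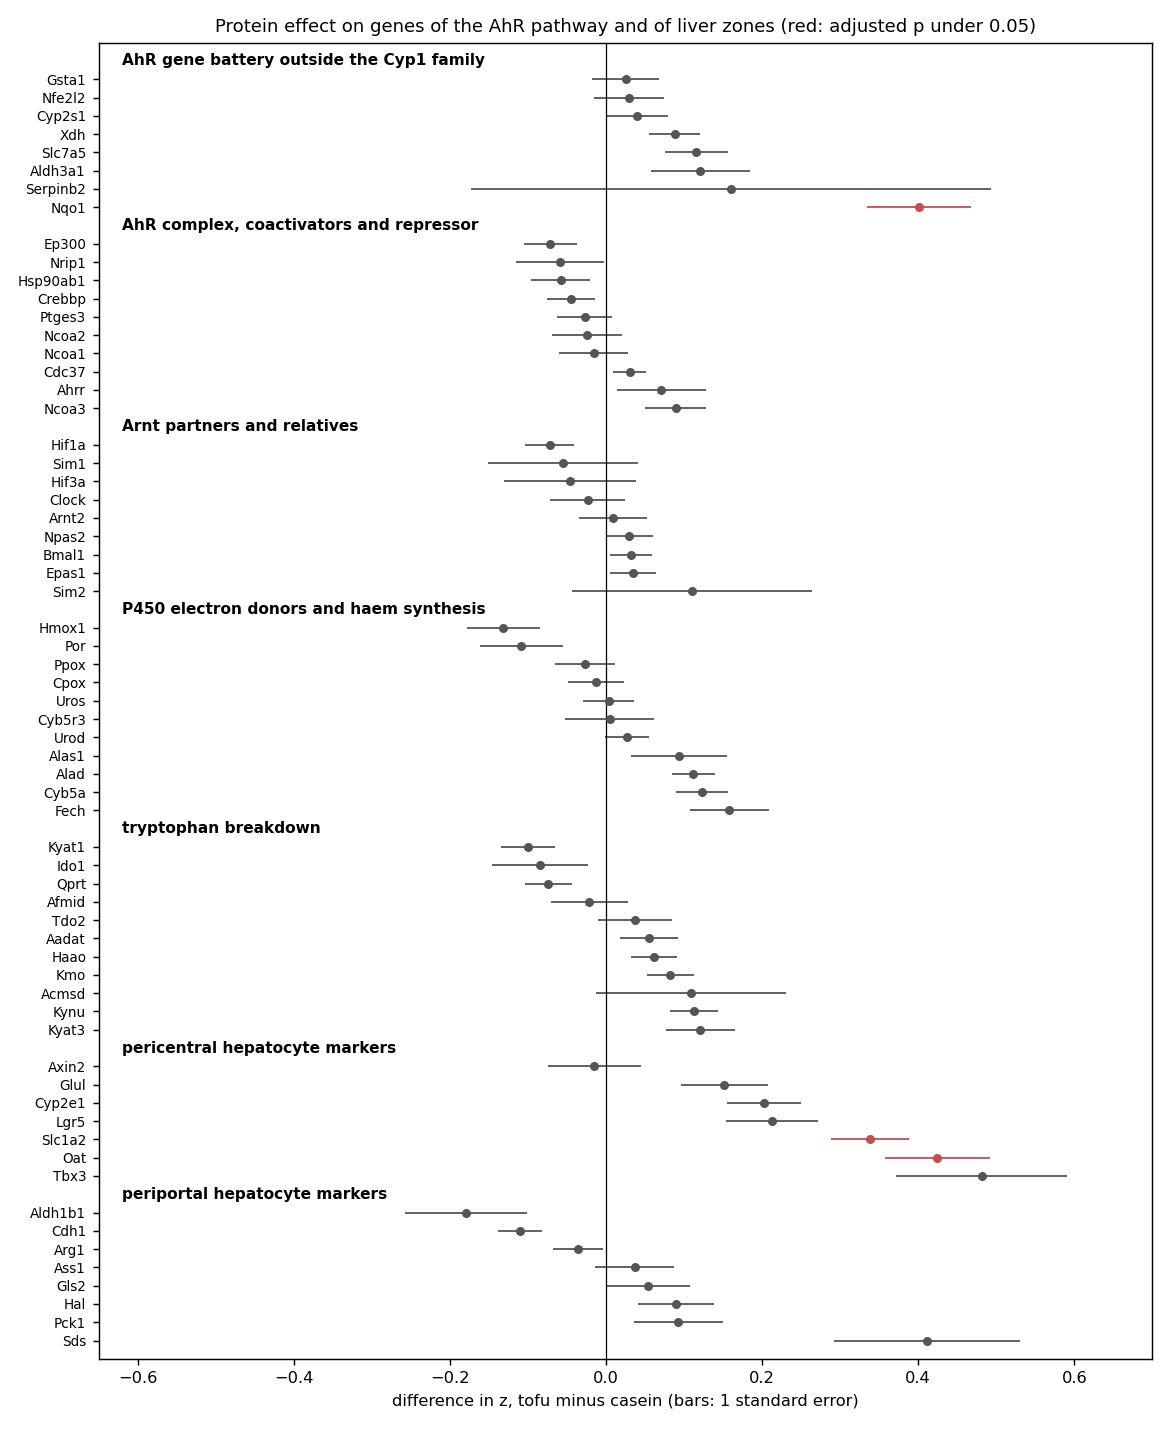
Protein effect in z (tofu minus casein, x axis) of the measured genes of 7 lists (y axis: genes), with bars of 1 standard error; red marks an adjusted p under 0.05 by limma. Nqo1 (0.40) in the AhR battery and Slc1a2 (0.34) and Oat (0.42) among the pericentral markers passed, and the genes of the AhR complex lie between -0.07 and 0.09.

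Cyp1a2 belongs to the hepatocytes around the central vein, so markers of liver zones were given beside it. Of 8 pericentral markers 7 were measured, and for the protein effect 2 rose and 0 fell, where 0.921% of all genes passed. At an unadjusted p below 0.05 there were 6 of the 7, beside 11.5% of all genes. The median difference was 0.21 beside 0.01 for all genes. The differences ran from -0.01 to 0.48, and the marker with the largest one did not pass. Oat, which makes glutamate semialdehyde from ornithine, differed by 0.42 (2.07-fold, adjusted p = 0.00430 by limma). Slc1a2, a glutamate carrier, differed by 0.34 (adjusted p = 0.00228), with all 10 tofu-fed rats above all 10 casein-fed rats. This probe set was dim, with means of 0.13 on tofu and -0.20 on casein, the latter below the highest array median (0.024). Averaged over all probe sets of Slc1a2, the difference was 0.17 and no longer passed (adjusted p = 0.296). The best known markers of the zone did not pass, with Glul, glutamine synthetase, at 0.15 (adjusted p = 0.319) and Cyp2e1 at 0.20 (1.42-fold, adjusted p = 0.0636).

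The mean z over the 7 pericentral markers ran from 0.72 to 0.96 in CS, from 0.72 to 0.94 in CF, from 0.98 to 1.15 in TS and from 1.07 to 1.18 in TF, so tofu-fed and casein-fed rats did not overlap. The means over the 8 periportal markers were 1.79 to 2.04 in casein-fed and 1.80 to 2.02 in tofu-fed rats. Their median difference was 0.05, beside 0.01 for all genes. For the protein effect 0 were called, where 0.921% of all genes passed. At an unadjusted p below 0.05 there were 3 of the 8, beside 11.5% of all genes. Of these 3, Sds, an enzyme of serine breakdown, differed by 0.41 with protein (2.03-fold, adjusted p = 0.170), Cdh1, E-cadherin, by -0.11 (adjusted p = 0.0933) and Aldh1b1, an aldehyde dehydrogenase, by -0.18 (adjusted p = 0.436). The largest oil effect of the list was that of Aldh1b1 (-0.31, adjusted p = 0.244). In whole liver, more cells of a zone and more RNA per cell cannot be told apart, and the part of the pericentral markers in the Cyp1a2 difference was not tested.

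Among markers of other liver cells 1 gene was called. It was Rgs5, a pericyte gene, among 8 stellate and mesenchymal markers (0.28, adjusted p = 0.0151 by limma). For the protein effect 0.921% of all genes passed. The casein mean of Rgs5, -0.12, lay below 0.024, the highest array median. The median of the stellate and mesenchymal list was 0.01, beside 0.01 for all genes. Among 5 Kupffer cell, 5 endothelial, 4 bile duct and 4 blood cell markers 0 passed for either effect, where 0.302% of all genes passed for oil. At an unadjusted p below 0.05 for protein there were 3 endothelial ones, beside 11.5% of all genes. Stab2, of sinusoidal endothelium, came nearest (0.13, adjusted p = 0.0635). All 5 endothelial differences were positive, and the mean z over these markers was 1.11 to 1.20 in casein-fed and 1.17 to 1.31 in tofu-fed rats, whose part in the Cyp1a2 difference was not tested. Cd5l and Clec4f of Kupffer cells differed by 0.05 and 0.04, Krt19 and Krt7 of bile ducts by 0.04 and -0.03, and Alas2 and Cd3e of blood cells by 0.09 and -0.08. Of the 5 hepatocyte markers 0 passed, and 2 had an unadjusted p below 0.05 for protein. Their median difference was 0.07, beside 0.01 for all genes, with Serpina1 at 0.08 and Apoa1 at -0.02. The protein effect was positive for 4 of the 5, and for 2 of the 5 after quantile normalization.

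The genes whose z scores followed those of each gene most closely were found over the 20 arrays after the 4 group means had been taken off, among the 7107 or 7108 genes brighter than the median gene. For Cyp1a2 these were Tm9sf1 (r = 0.82), Rnf41 (0.81) and Slc29a1 (0.80). For Tiparp they were Bcap29 (0.90), Zbtb11 (0.89) and Zfp146 (0.88), the closest of all. For Cyp1b1 they were Vps33b, Tdg and RT1-Bb (0.78, 0.78 and 0.77), for Arnt Tmem101, Rprd1a and Aqp1 (0.76, 0.71 and 0.71), for Ahr Acot4, Upb1 and Igsf11 (0.73, 0.68 and 0.65), and for Cyp1a1 Zfp212, Gpx7 and Acap3 (0.67, 0.63 and 0.61). Of the 6 genes only Cyp1a2 and Tiparp were bright enough to be among those searched, and neither was among the 3 nearest of another. The remaining members could not appear as nearest genes. With the group means left in, r over the 20 arrays was 0.50, -0.03 and 0.81 for the 3 genes nearest Cyp1a2. For those nearest Ahr it was -0.02, 0.72 and 0.36, in the order given. For the genes nearest the other members it lay between 0.31 and 0.88. The points share the quality of each array, the highest correlations after removal of the group means were picked, and no test was made.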

How the data were processed

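Liver RNA was measured on Affymetrix Rat Genome arrays, 1 per rat. The deposited unit is a z score with a log scale, made by the authors with SuperNORM, a service that standardises every array. For group differences the authors took trimmed means over Perfect Match cells; how the deposited value of a rat was summarised and its background treated is not given in the sources used here, and no signal over background or counting depth is known; the number of rats limits the precision, with a median standard error of 0.0533 z for a main effect.

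The table lists 31099 probe sets. Without its 57 controls, 31039 with at least 3 values per group were tested. Symbols come from the array annotation, updated by gene identifier, with 20825 probe sets holding 1 symbol, 436 several and 9778 none. Only the first kind was named, and each gene was represented by its brightest probe set (highest mean z). Means of the 4 groups were fitted in limma 3.58.1 (R 4.3.3) with moderated variance, on all 20 arrays. Adjusted p-values are Benjamini-Hochberg over all probe sets, with a threshold of 0.05. The model replaces the authors' analysis of variance over single array cells. It was tested on simulated data.

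Genes named are the 6 genes, of each other list the members that passed for protein or oil or else those with the largest effects, the 3 nearest genes by correlation, and a few further list members chosen after their values were seen. The members and lists were chosen with earlier results of these data known. Nothing says more than that each array is a separate rat, so p-values measure the spread between rats. Alternatives were quantile scaling, scaling to a common median and interquartile range, a filter on dim probe sets, a block for the rat number, no moderation, a robust variance trend, array weights, averaging over a gene's probe sets, fits of 2 groups and leaving out each rat. Removal of the 4 rats with low beta-actin, a block for them, removal of the 3 least correlated arrays, and all alternatives for the lists were added after seeing the data.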

Additional observations from a re-analysis of the deposited data

Results flagged for a closer look

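Over 48 sets of 5 rats (12 probe sets in 4 groups), 6 had a rat far from the others by Dixon's criterion, which chance alone meets in about 1 in 20 sets, so there were more such sets than that share. For Arnt, CS-1 was at -0.40, below the nearest CS rat at -0.30. For the second probe set of Tiparp, CF-1 was at -0.66, with the nearest rat at 0.07, and TF-3 at -0.67, with the nearest at -0.07. For Nqo1, CS-5 was at 0.32, with the nearest CS rat at 0.79. For Oat, TS-2 was at 1.93, with the nearest at 2.23. For Rgs5, TF-3 was at -0.11, with the nearest at 0.13. CS-1, CF-1 and TF-3 had the low beta-actin control, whose part in these values was not tested, and CS-5 and TS-2 did not. Without CS-5 the interaction of Nqo1 was -0.63 (unadjusted p = 8.34e-06, adjusted p = 0.259 by limma), so its sign did not rest on that rat.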

How the results depend on the processing

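Cyp1a2 kept its direction in every alternative and its call in all except 2, so the members called for the protein effect were 0 without the 4 rats with low beta-actin (Cyp1a2 0.42, adjusted p = 0.0657) and 0 without the 3 least correlated arrays (0.41, adjusted p = 0.0779), which leave fewer rats. Leaving out 1 rat gave 1 called gene each time. For the oil effect and the interaction 0 were called in every alternative. The pericentral markers had 4 called with bright probe sets only, the replicate block, the variance trend or array weights, and 1 with a gene's probe sets averaged or without the 4 rats (2 to 3 with 1 rat left out). The AhR battery had 0 called with the replicate block (Nqo1 0.40, adjusted p = 0.0991) and 1 otherwise. Slc1a2 fell to 0.17 (adjusted p = 0.296) as the mean of its probe sets, Oat to 0.40 (adjusted p = 0.0657) without the 4 rats, and Rgs5 to 0.25 (adjusted p = 0.113) without the 3 arrays; the cause was not tested.

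Differences near 0 turned their sign. The protein effect of Cyp1b1 was -0.014 with quantile scaling, -0.014 with common median and interquartile range, -0.00036 with array weights and -0.036 without the 3 arrays (-0.027 to 0.026 with 1 rat left out), and that of Ahr was -0.019 without the 4 rats (-0.0062 to 0.063, lowest without CF-1). The oil effect of Cyp1b1 was 0.025 without the 4 rats (-0.048 to 0.00078 with 1 rat left out), that of Arnt ran from -0.00019 to 0.053 with 1 rat left out, and that of Tiparp was 0.022 with the replicate block and 0.00041 without the 3 arrays (-0.037 to 0.023). The cause was not tested.

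Rat numbers were not taken as pairs, since same-numbered rats correlated with r of -0.0975 to 0.128 over 22 pairs, and 7 of these correlated best with their own number. Of these 7, 4 were among the 5 pairs of CS and CF (r of 0.0494 to 0.128). Every rat numbered 1 had the low beta-actin control, so the number and that control overlap. With the replicate block Cyp1a2 was at 0.43 (adjusted p = 0.0238). Over all probe sets, 173 were called for protein and 60 for oil, against 347 and 77 with bright probe sets only, 91 and 27 with the block, 289 and 68 with the variance trend, 72 and 44 without the 4 rats, and 74 and 34 without the 3 arrays. With 1 rat left out they were 114 for protein at the lowest, without CS-2. A change in genes dimmer than the array medians could not be expressed as a fold.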
